A study of Homo sapiens with 10 samples.

Results

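Human melanoma cells of the line MDA-MB-435 that had been transduced with integrin beta4 (ITGB4) were compared with untreated cells of the same line, across all genes of the array. The comparison rests on 4 of the 10 arrays of the series, those whose treatment label names integrin beta4 (2 arrays) and those whose label gives no treatment (2 arrays). The other 6 arrays, 2 each after 1, 6 and 24 h with hepatocyte growth factor (HGF), entered the fit for their spread and served as further cells without the transgene. RNA was hybridised to Affymetrix hgu133a arrays, on which a gene is read by 1 or more probe sets, and each deposited value is a log2 signal from robust multiarray averaging (RMA). The paper describes the arrays of a group as biological duplicates and the transduction as giving a stable rise of ITGB4. The promoter of the vector, and whether the transduced cells were a clone or a pool, are not given in the sources used here. In the descriptions of the transduced samples the word Mock stands beside B4, whereas title, source and treatment label give integrin beta4 alone. Cells transduced without ITGB4 are not among the groups, so transduction itself and ITGB4 cannot be told apart.

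ITGB4 encodes a subunit of the laminin receptor alpha6beta4, which epithelial cells use to anchor themselves to the basement membrane through hemidesmosomes. There its long cytoplasmic tail binds plectin and, through it, keratin filaments. In carcinoma cells the same tail is known as a platform for signalling through SHC, PI3-kinase and Src family kinases.

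Of 22283 probe sets, 68 were controls, and 10176 were kept because at least 2 of the 10 arrays reached a value of 7.3. Those annotated with a single symbol, 9098 in number, read 6390 genes. Array medians over all probe sets lay between 6.81 and 6.88. Of 25 melanocyte lineage genes on the array 20 were kept, and the mean level of those 20 was 10.47 to 10.60 on the untreated arrays and 10.50 to 10.52 on the ITGB4 arrays. Of 24 epithelial genes 5 were kept, with a mean level of 7.74 to 7.93 on the untreated arrays and 7.73 to 7.79 on the ITGB4 arrays. The highest of them was KRT18, with means of 9.50 and 9.32. Among those not kept, EPCAM and CDH1 had means of 3.67 and 4.76 in untreated and 3.66 and 4.80 in ITGB4 cells, levels at the low end of the array. Of 19 fibroblast genes 5 were kept, with a mean level of 7.95 to 7.97 on the untreated arrays and 7.97 to 8.06 on the ITGB4 arrays. The highest of them was DDR2, with means of 9.17 and 9.13. The labelled cell type was thus borne out by its own markers in both groups, although some epithelial and fibroblast genes were also above the filter. As the RNA is from bulk cells, fewer cells with a transcript and less of it per cell cannot be told apart.

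ITGB4 itself rose on 3 of its 4 probe sets. Probe set 204990_s_at read 6.70 and 6.58 on the untreated arrays and 13.23 and 12.96 on the ITGB4 arrays. On 204989_s_at the untreated arrays were at 5.47 and 5.43 and the ITGB4 arrays at 11.98 and 11.66, and on 211905_s_at the values were 4.82 and 4.72 against 10.53 and 10.29. In each of the 3 both ITGB4 arrays stood far above every other array, the highest of the 8 others being 6.86, 5.56 and 5.28. The log2 differences from untreated cells were 6.46 (SE 0.13), 6.37 (SE 0.16) and 5.65 (SE 0.18), the first being 87.9-fold on the RMA scale, with limma adjusted p of 2.35e-10, 1.94e-09 and 1.71e-08. Among 22215 probe sets, 204990_s_at held rank 11867 and 12163 from the top on the untreated arrays and 107 and 138 on the ITGB4 arrays. Probe set 214292_at did not move with them, at 5.23 and 4.90 against 5.06 and 5.47. All untreated values lay below the filter, near background, and the sizes of these differences are therefore approximate. The annotated gene spans chr17:75721459-75757818 in GRCh38.p14.

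**Figure D1:**
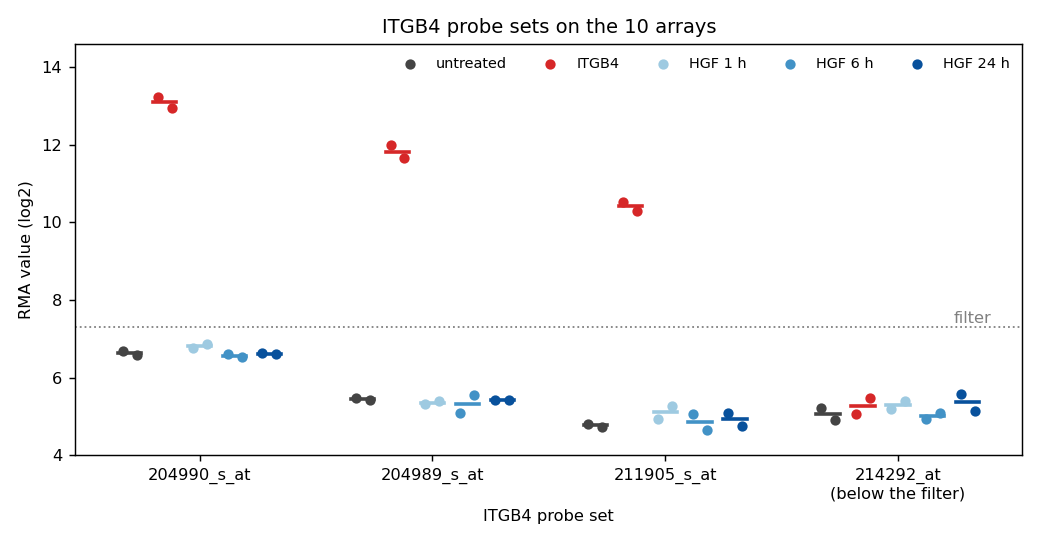
RMA value (log2) of each of the 4 ITGB4 probe sets on each array, with points for arrays, bars for group means and a dotted line at the filter of 7.3. The ITGB4 arrays are at 10.29 or above on 3 probe sets while every other array is at 6.86 or below, and on 214292_at all groups overlap.

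Beyond ITGB4, 1 probe set each of MBNL1 and IQGAP1 rose, and no probe set fell. With limma at an adjusted p under 0.05, 5 of 10176 probe sets were called higher in ITGB4 cells (0.0491%) and 0 lower (0%). At an unadjusted p under 0.05 there were 379 higher and 239 lower. Over all kept probe sets the median difference was -0.00093, with an SD of 0.208, and the median SE of a difference was 0.144. A difference over 1 was seen upwards in 5 probe sets and downwards in 3. Of the 10176 probe sets, 132 passed the filter only through the ITGB4 arrays, among them 4 of the 5 called, the 3 of ITGB4 and that of MBNL1.

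MBNL1 encodes muscleblind-like 1, an RNA-binding protein that regulates alternative splicing. Its probe set 201151_s_at was at 6.28 and 6.45 in untreated cells and at 7.72 and 7.54 in ITGB4 cells. No other array was above 6.45, and the lowest was at 5.17. The difference was 1.27 (SE 0.12, limma adjusted p = 0.00140), or 2.41-fold. This probe set passed the filter only through the 2 ITGB4 arrays and every other value lay below it, so that the size is approximate and the probe set could enter the test only by being high in ITGB4 cells. Its other kept probe sets read higher levels with small differences, 0.19 on 201152_s_at (10.02 and 10.22 against 10.47 and 10.15) and 0.18 on 201153_s_at (9.12 and 9.21 against 9.63 and 9.07), and on both the groups overlapped. The call for MBNL1 thus belongs to 1 of 3 kept probe sets, and on the mean of the 3 the limma adjusted p was 0.493.

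IQGAP1 encodes a scaffold that links RAC1 and CDC42 to actin filaments and to cell contacts. Probe set 213446_s_at was at 8.79 and 8.55 in untreated cells and at 9.78 and 9.60 in ITGB4 cells, with the 8 other arrays between 8.11 and 8.79. The difference was 1.02 (SE 0.13, limma adjusted p = 0.0153), or 2.02-fold. Both ITGB4 arrays were thus clear of every other array here. The remaining probe sets of IQGAP1 differed by 0.26 on 210840_s_at (9.63 and 9.72 against 10.11 and 9.76) and by -0.16 on 200791_s_at (10.29 and 10.38 against 10.34 and 10.01). This call was lost without either untreated array (adjusted p = 0.0568 and 0.254), without either ITGB4 array (0.193 and 0.0524) and without either HGF 6 h array (0.0538 each).

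With 2 arrays against 2, an exact two-sided permutation test of a single gene cannot give a p below 0.333, so calls rest on the spread that limma borrows across groups and genes. Counts of arrays that do not overlap describe the rest. Both ITGB4 arrays lay above both untreated arrays in 1725 probe sets (17%) and below both in 1799 (17.7%). They lay above all 8 other arrays in 602 (5.92%) and below all 8 in 625 (6.14%), and 35 of the 602 had passed the filter only through the ITGB4 arrays. Of the 625, 0 had passed it that way. Among probe sets the counts were thus nearly even between the directions. Larger differences were mostly upwards, with 90 probe sets above 0.5 and 43 below -0.5. How many of the 90 passed the filter only through the ITGB4 arrays was not counted. Counted by the brightest probe set of each gene, fewer genes lay above than below. Of 6390 genes, 295 lay above all 8 (4.62%) and 409 below (6.4%), and 941 and 1192 lay beyond both untreated arrays.

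Array by array, the differences of ITGB4 replicate 1 from untreated replicate 1 and of ITGB4 replicate 2 from untreated replicate 2, which share no array, had the same sign in 5177 of 10176 probe sets (50.9%). Pearson's r across the probe sets was 0.258, and 0.111 without the ITGB4 probe sets, as a description over probe sets that are not independent. With the untreated numbers crossed, a choice that shares no array either, r was 0.135, and -0.015 without the ITGB4 probe sets, so the sign beyond ITGB4 depended on the numbering. A difference above 0.5 in both was found in 37 probe sets and below -0.5 in both in 22, while 23 passed 0.5 in opposite directions. The 2 ITGB4 arrays thus shared the sign of the difference in about as many probe sets as they did not.

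**Figure D2:**
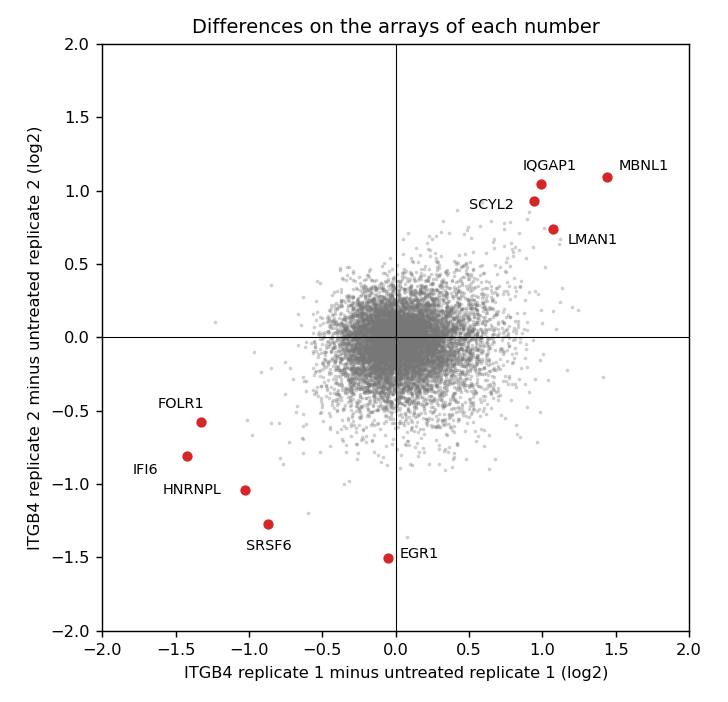
Log2 difference of ITGB4 replicate 1 from untreated replicate 1 (horizontal) against that of ITGB4 replicate 2 from untreated replicate 2 (vertical), a point for each kept probe set, with the 3 ITGB4 probe sets outside the axes and not drawn. MBNL1 and IQGAP1 lie in the upper right corner with SCYL2 and LMAN1, IFI6, FOLR1, HNRNPL and SRSF6 lie in the lower left, and EGR1 differs on replicate 2 alone.

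None of the highest genes after the called ones passed the adjusted threshold against untreated cells. SCYL2, a kinase-like protein of clathrin-coated vesicles, was at 7.39 and 7.17 in untreated and 8.33 and 8.10 in ITGB4 cells, a difference of 0.93 (SE 0.15, limma adjusted p = 0.0939). LMAN1, the cargo receptor ERGIC-53 that carries glycoproteins from the endoplasmic reticulum (ER), was at 7.03 and 7.01 against 8.10 and 7.75, a difference of 0.90 (SE 0.15, adjusted p = 0.0965). Both ITGB4 arrays were above all others for each of the 2 genes, the highest other array being 7.39 and 7.10. LMAN1 passed the filter only through its ITGB4 arrays, so its difference is approximate.

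ELOVL2, an elongase of polyunsaturated fatty acids, was at 7.88 and 7.77 against 8.72 and 8.48 on 220029_at, a difference of 0.77 (limma adjusted p = 0.0965), and at 8.21 and 8.43 against 8.74 and 8.66 on 213712_at, a difference of 0.38. On both probe sets the ITGB4 arrays were the highest of all 10. SDHD, a membrane anchor of succinate dehydrogenase, was at 8.29 and 8.33 against 8.94 and 9.13 (difference 0.72). RTN4, a reticulon that shapes ER tubules, was at 9.98 and 10.10 against 10.78 and 10.69 on 210968_s_at (difference 0.69) but differed by 0.25 and 0.10 on its other probe sets, where HGF arrays reached higher values. By the gap to the nearest other array, GMCL1 (6.44 and 6.89 against 7.55 and 7.53, kept through the ITGB4 arrays alone), RNF11 (8.17 and 8.20 against 8.84 and 8.81) and GULP1, an adaptor for the engulfment of dying cells (7.45 and 7.21 against 8.36 and 8.07 on 215913_s_at), stood out as well. GULP1 differed by 0.88 there and by 0.89 on 204235_s_at, and by -0.05 on 204237_at, where the groups overlapped.

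Among the lowest genes, IFI6, an interferon-induced mitochondrial protein, and FOLR1, a folate receptor anchored in the cell membrane, differed most clearly. IFI6 was at 8.39 and 8.16 in untreated and 6.96 and 7.35 in ITGB4 cells, a difference of -1.12 (SE 0.19, limma adjusted p = 0.0965). FOLR1 was at 10.85 and 10.44 against 9.52 and 9.86, a difference of -0.95 (SE 0.16, adjusted p = 0.0965). The lowest other array was at 7.74 for IFI6 and 10.44 for FOLR1, so that both ITGB4 arrays were clear of the other 8 in each case. SUPV3L1, a helicase of mitochondrial RNA decay, was at 8.66 and 8.51 against 8.02 and 7.82 (difference -0.66), and COPG1, a subunit of the COPI coat, at 9.92 and 10.04 against 9.24 and 9.53 (difference -0.60). GOLIM4, a Golgi membrane protein, was at 7.59 and 8.05 against 6.99 and 6.85 (difference -0.90), but HGF arrays reached down to 6.87 there. Smaller gaps below all other arrays were those of TCIRG1, a subunit of the vacuolar proton pump (difference -0.36), GPRC5A (-0.40 on 203108_at), TCF25 (-0.39 on 213311_s_at) and SAFB (-0.34 on 201748_s_at).

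**Figure D3:**
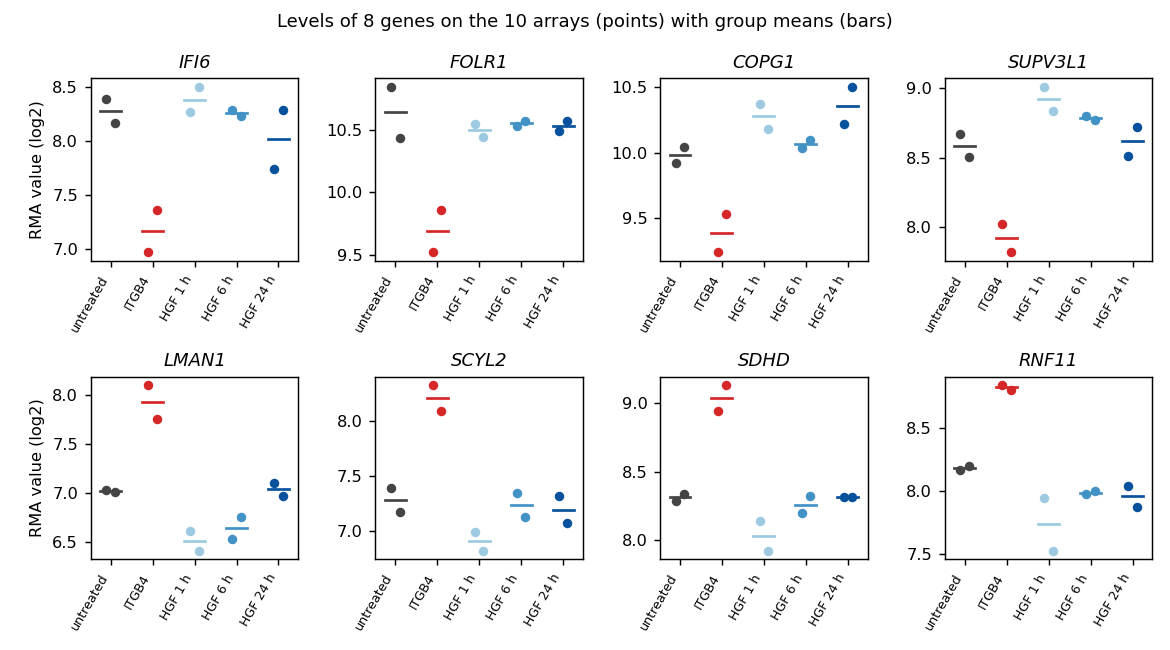
RMA value (log2) of 8 genes on each array by group, points for arrays and bars for group means, with a vertical axis of its own for each gene that does not start at 0. In every panel the ITGB4 arrays lie beyond all 8 other arrays, below them for IFI6, FOLR1, COPG1 and SUPV3L1 and above them for LMAN1, SCYL2, SDHD and RNF11.

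Set against the mean of the 4 other groups, none of which carried the transgene, more genes were called. In that limma contrast 326 probe sets of 260 genes were higher in ITGB4 cells (3.2% of probe sets, 4.07% of genes) and 139 of 122 genes lower (1.37% and 1.91%). Of the 326, 325 also had a positive difference from untreated cells alone, 273 had both ITGB4 arrays above both untreated arrays and 249 had them above all 8 others, while 28 had passed the filter only through the ITGB4 arrays. Of the 139, all had a negative difference from untreated cells, 133 lay below both untreated arrays and 122 below all 8 others. The median difference of the higher probe sets was 0.60 from the 4 groups and 0.38 from untreated cells, and that of the lower ones -0.48 and -0.31. This reference holds HGF-treated cells, so a gene moved by HGF also takes part in it.

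The size of that set depended on single arrays, and most on ITGB4 replicate 1, without which 13 probe sets were called higher and 8 lower. Without ITGB4 replicate 2, 542 were called higher and 40 lower. Without HGF 6 h replicate 1 the counts were 175 and 33, without HGF 6 h replicate 2 they were 157 and 31, and without untreated replicate 1 and 2 they were 183 and 40 and 229 and 67. Without HGF 24 h replicate 2 they were 264 and 86, and without the other HGF arrays 294 to 396 higher and 99 to 198 lower. Each of these settings was chosen after the data were seen.

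Genes read by several probe sets gave a check within the arrays. Of 1926 genes with 2 or more kept probe sets, 39 (2.02%) had every probe set above all 8 other arrays and 21 (1.09%) had every one below, while 279 had at least 1 above and 226 at least 1 below. Against the mean of the 4 other groups, 14 of them were called higher and 2 lower on every probe set, 41 were called on at least 2 probe sets in the same direction, and 168 of the 211 with a call were called on 1 probe set alone. The genes of the next 2 paragraphs that were called on at least 2 probe sets were chosen after their values were seen.

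SCARB2, the lysosomal membrane protein LIMP-2, was at 9.29 and 9.15 against 9.80 and 9.83 on 201646_at and at 8.42 and 8.25 against 9.00 and 9.01 on 201647_s_at. PTPN11 encodes the phosphatase SHP2, which acts downstream of growth factor receptors and of alpha6beta4. It was at 9.34 and 9.24 against 10.13 and 9.84 on 209896_s_at, at 8.45 and 8.39 against 8.98 and 8.85 on 209895_at, and at 10.16 and 10.21 against 10.39 and 10.29 on 212610_at. All 3 kept probe sets of PTPN11 and both kept ones of SCARB2 had their ITGB4 arrays above every other array. Against the mean of the 4 groups SCARB2 rose by 0.87 and 0.82 (adjusted p = 0.00150 and 0.00369), and PTPN11 rose by 0.83 and 0.62 (0.0132 and 0.00964), with 0.39 (0.0723) on 212610_at. In the same contrast MBNL2, the paralog of MBNL1, rose by 1.02 and 0.58 on 2 of its 3 probe sets (0.00619 and 0.0228). On 205018_s_at it was at 7.38 and 7.10 against 8.27 and 7.91. On its brightest probe set, 203640_at, ITGB4 replicate 1 was the highest of the 4 arrays at 9.33 and replicate 2 the lowest at 8.45.

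HNRNPL, a splicing repressor that binds CA-rich RNA, was the clearest gene in the other direction. It was at 9.62 and 10.01 against 8.59 and 8.97 on 202072_at and at 9.86 and 10.11 against 9.07 and 9.28 on 35201_at, below all 8 other arrays on both. The differences from untreated cells were -1.03 (SE 0.26, limma adjusted p = 0.324) and -0.81 (SE 0.19, 0.259), and against the 4 groups HNRNPL fell by 0.92 and 0.70 (0.0345 and 0.0269). SRSF6, a serine/arginine-rich splicing factor, differed by -1.07 on 206108_s_at (8.50 and 8.53 against 7.63 and 7.26) and by -0.04 on 208804_s_at. Probe sets of PRRC2C and of the transcription factor YY1 went opposite ways, with -0.66 and 0.71 for PRRC2C on 211944_at and 211947_s_at (the latter kept through the ITGB4 arrays alone), and -0.82 and 0.35 for YY1 on 213494_s_at and 200047_s_at. For RAB2A, a small GTPase of ER to Golgi traffic, 3 of 5 kept probe sets lay below all other arrays (differences of -0.72, -0.46 and -0.20) and the other 2 differed by -0.08 and 0.09. CKAP4 (-0.72 on 200998_s_at and 0.03 on 200999_s_at) and HSP90B1 (-0.62 on 216450_x_at and 0.22 on 216449_x_at) were likewise low on 1 of 2 probe sets.

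The 2 ends of the ACTB and GAPDH transcripts, read by control probe sets, differed between the untreated and the ITGB4 arrays. The 3′ minus 5′ value of ACTB was -0.30 and -0.34 on the untreated and -0.45 and -0.57 on the ITGB4 arrays, and that of GAPDH was -0.012 and -0.011 against -0.16 and -0.19. The HGF arrays ranged from -0.42 to -0.085 for ACTB and from -0.21 to -0.0061 for GAPDH. For GAPDH the 2 arrays of HGF 6 h alone spanned that range, which held the ITGB4 values. The part of these values in the differences between probe sets of a gene was not tested.

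The partner subunit of ITGB4 was not called. ITGA6, which pairs with ITGB4 to form alpha6beta4, was at 9.49 and 9.20 in untreated and 10.25 and 9.51 in ITGB4 cells on 215177_s_at, a difference of 0.54 (SE 0.21, limma adjusted p = 0.739). On 201656_at it was at 8.08 and 8.33 against 8.78 and 7.96, a difference of 0.17. On both probe sets replicate 1 was above the untreated arrays. Replicate 2 was just above both on 215177_s_at and below both on 201656_at. Of 10 other integrin subunits kept, counted by the probe set with the highest mean, ITGAV (difference 0.22) was above all 8 other arrays and ITGA5 (-0.09) and ITGA7 (-0.29) below, beside 4.62% of all genes above and 6.4% below, and the median of the 10 was 0.07 against -0.00 over all genes. In no gene of the hemidesmosome and basement membrane list, 13 genes with a median of 0.05, was there a call against untreated cells or the 4 groups. DST, which encodes a plakin of hemidesmosomes, differed by 0.26 (8.39 and 8.29 against 9.07 and 8.12), with the ITGB4 arrays on either side of the untreated ones. LAMB2 had the largest difference of that list, -0.29 (7.93 and 7.75 against 7.60 and 7.49). It lay below all 8 others by 0.0056 (7.69% of the list below, beside 6.4% of all genes, and 0% above, beside 4.62%).

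Signalling partners of alpha6beta4 made up the list with the largest share above all other arrays. Of 23 genes kept, 5 lay above all 8 (21.7%, beside 4.62% of all genes) and 0 below (beside 6.4%), and the median difference was 0.06. Besides PTPN11 these were RHOA, a GTPase of actin contractility (11.30 and 11.59 against 11.86 and 11.94, difference 0.46), PRKCA, protein kinase C alpha (7.47 and 7.66 against 7.91 and 7.94, 0.36), YES1, a Src family kinase (7.33 and 7.55 against 7.95 and 7.59, 0.33), and the docking protein GAB1 (7.33 and 6.99 against 7.40 and 7.38, 0.23). The gaps were small for YES1 and GAB1, where the lower ITGB4 array stood within 0.1 of the highest other one, and GAB1 passed the filter only through the ITGB4 arrays. Against the 4 groups, PTPN11, PRKCA, YES1 and IRS2 rose on at least 1 probe set and none fell (17.4% of the list higher, beside 4.07% of all genes higher and 1.91% lower). On its brightest probe set IRS2 differed from untreated cells by -0.07 (10.23 and 10.20 against 10.03 and 10.26), where the groups overlapped. Its other probe set differed by 0.18 (8.62 and 8.77 against 8.83 and 8.91). The second kept probe set of PRKCA differed by 0.09 (7.17 and 7.47 against 7.28 and 7.53), also with overlap. Of 11 genes linked to alpha6beta4 in carcinoma cells, none lay beyond the 8 other arrays. ENPP2, the lysophospholipase autotaxin, differed by -0.31, VEGFA by -0.10 and SPARC by 0.17, and MMP2, a collagenase, was at 9.39 and 9.59 against 8.99 and 9.09 and fell by 0.53 against the 4 groups (adjusted p = 0.0378). No member of either list was called against untreated cells.

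In the actin and focal adhesion list, 3 of 30 genes lay above all 8 others (10%, beside 4.62% of all genes) and none below (beside 6.4%), with a median of 0.08. They were TPM1, a tropomyosin (8.75 and 8.68 against 9.41 and 8.93, difference 0.45), ARPC3 (9.43 and 9.68 against 9.92 and 9.94, 0.37) and ARPC2 (0.26), both subunits of the ARP2/3 complex that nucleates branched actin. IQGAP1, of the same list, is counted there by its brightest probe set and so not among the 3. Against the 4 groups IQGAP1, TPM1 and ACTR3 rose (10%, beside 4.07% of all genes). Among 28 MBNL proteins and splicing factors the median was 0.06, but it was 0.16 on replicate 1 and -0.10 on replicate 2. In this list MBNL1, MBNL2, QKI and SF3B1 rose on at least 1 probe set against the 4 groups (4 of 28 genes, beside 4.07% of all genes) and SRSF6 fell (1 of 28, beside 1.91%). MBNL1 is counted there by 201151_s_at, which passed the filter only through the ITGB4 arrays. SF3B1, the branch site factor of the spliceosome, was at 8.73 and 8.74 against 9.21 and 9.48 on 201070_x_at.

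Genes of ER to Golgi transport went both ways. Of 30 kept, LMAN1, KDELR3 and MCFD2 were above all 8 others, and COPG1 and SEC31A below, with a median of 0.05. These are 10% above and 6.67% below, beside 4.62% and 6.4% of all genes. LMAN1 is counted here and against the 4 groups although it passed the filter only through its ITGB4 arrays. KDELR3, a receptor that returns ER proteins from the Golgi, was at 9.09 and 9.14 against 9.90 and 9.76 (difference 0.71, limma adjusted p = 0.115) and differed by 0.43 on its second probe set. MCFD2, which binds LMAN1 as its cargo partner, was at 7.73 and 7.60 against 8.05 and 7.98 (0.35), and SEC31A, a COPII coat subunit, at 10.07 and 9.98 against 9.82 and 9.88 (-0.18). Other probe sets of these genes differed less or the other way, with 0.10 for MCFD2 on 212246_at (7.46 and 7.44 against 7.80 and 7.29) and 0.17 for SEC31A on 200945_s_at. The COPI subunits COPA (0.23 on 214336_s_at) and COPB1 (0.16 on 201359_at) were above all 8 others on a probe set other than their brightest, by small gaps. Against the 4 groups LMAN1, KDELR3, SAR1B and SEC23A rose (13.3%, beside 4.07% of all genes) and COPG1 fell (3.33%, beside 1.91%). Neither coat thus had a common direction.

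Interferon-induced genes had a median of -0.07 over 29 kept, with IFI6, BST2, PML and PSMB8 below all 8 other arrays (13.8%, beside 6.4% of all genes) and EIF2AK2 above (3.45%, beside 4.62%). BST2, a tetherin that holds back enveloped viruses, was at 10.09 and 10.23 against 9.79 and 9.94, a difference of -0.30 (SE 0.12, limma adjusted p = 0.768). PML and PSMB8 differed by -0.15 and -0.04. EIF2AK2, the kinase PKR, differed by 0.19 on 204211_x_at and 0.42 on 213294_at. Against the 4 groups IFI6 and BST2 fell (6.9%, beside 1.91% of all genes) and EIF2AK2 and IFI16 rose (6.9%, beside 4.07%), so the list had no common direction. The RefSeq promoter windows of IFI6 and BST2 (GRCh38.p14, 250 bases before to 50 after the start, both genes on the minus strand, read along the gene) are shown because these genes fell against the 4 groups and share the spaced repeat GAAANNGAAA of interferon response elements, searched on both strands and in capitals here.
IFI6 chr1:27672143-27672442: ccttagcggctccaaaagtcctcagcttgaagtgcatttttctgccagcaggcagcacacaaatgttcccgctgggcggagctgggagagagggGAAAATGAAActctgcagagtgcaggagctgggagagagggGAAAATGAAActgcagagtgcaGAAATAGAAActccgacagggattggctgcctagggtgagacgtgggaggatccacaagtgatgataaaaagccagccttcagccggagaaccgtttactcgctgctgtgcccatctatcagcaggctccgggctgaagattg
BST2 chr19:17405581-17405880: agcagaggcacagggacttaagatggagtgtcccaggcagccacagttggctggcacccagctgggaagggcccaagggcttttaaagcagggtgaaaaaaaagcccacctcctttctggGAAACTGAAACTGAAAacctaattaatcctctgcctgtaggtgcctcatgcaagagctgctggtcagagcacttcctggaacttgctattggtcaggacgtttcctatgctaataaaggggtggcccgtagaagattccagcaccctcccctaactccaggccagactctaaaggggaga
The repeat was found 3 times in the IFI6 window and in 2 overlapping copies in the BST2 window. It was also found in a window of EIF2AK2, which rose, and in 16 of the 24 listed genes that matched a window, compared with 4.38% of all 27305 genes with windows.

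Cell cycle lists gave no stable direction. The median of 47 G2 and M phase genes was 0.13 and that of 40 DNA replication genes 0.21, but the untreated arrays themselves lay at -0.27 and 0.27 and at -0.21 and 0.21 around their mean, further apart than the ITGB4 arrays. Without untreated replicate 1 the medians were -0.13 and -0.06, and without untreated replicate 2 they were 0.42 and 0.35. MAD2L1, a spindle checkpoint protein, was at 7.74 and 8.32 against 8.52 and 8.58, and RFC3, a subunit of the clamp loader, at 7.92 and 8.23 against 8.94 and 8.71 on 204128_s_at but at 9.32 and 9.81 against 9.73 and 9.47 on 204127_at.

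Ribosomal protein genes, 50 of them, had a median of -0.01, with 3 above (6%, beside 4.62% of all genes) and 5 below all other arrays (10%, beside 6.4%). In the melanocyte list EDNRB, the endothelin receptor of the melanocyte lineage, was above all 8 others on both probe sets (10.28 and 10.31 against 10.78 and 10.66, and 10.31 and 10.30 against 10.68 and 10.64), and it rose by 0.43 against the 4 groups (limma adjusted p = 0.0378 on 204271_s_at). SOX10, of the same list, was below all 8 others on its brightest probe set (11.53 and 11.40 against 11.35 and 11.29, difference -0.14). The gap there was small, at 0.046, and its other kept probe set differed by 0.09. The shares were 5% each way, beside 4.62% and 6.4% of all genes. The median of the melanocyte list was -0.02. In the list of epithelial-mesenchymal regulators, with a median of 0.01, FN1 (fibronectin) was at 7.82 and 8.03 against 8.62 and 8.44, a difference of 0.61 (SE 0.14, adjusted p = 0.271). It was above all others on both of its kept probe sets. PLAUR (difference -0.10) was the list's gene below all others. These are 6.67% each way, beside 4.62% and 6.4% of all genes. FOLR1 came from the folate list, whose median over 12 genes was 0.02. Stress response genes (29 genes, median -0.10), ribosome biogenesis genes (28, 0.01), immediate-early regulators (28, -0.07), golgins and other coiled-coil proteins (22, -0.07), and the epithelial and fibroblast markers (5 each, -0.12 and 0.12) had 1 gene above all 8 others, SPRY2 of the immediate-early list, and 5 below, 1 of the stress list and 2 each of the ribosome biogenesis and immediate-early lists. The share above was 3.57% of the immediate-early list, beside 4.62% of all genes. The shares below were 3.45% of the stress list and 7.14% of each of the other 2, beside 6.4% of all genes.

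**Figure D4:**
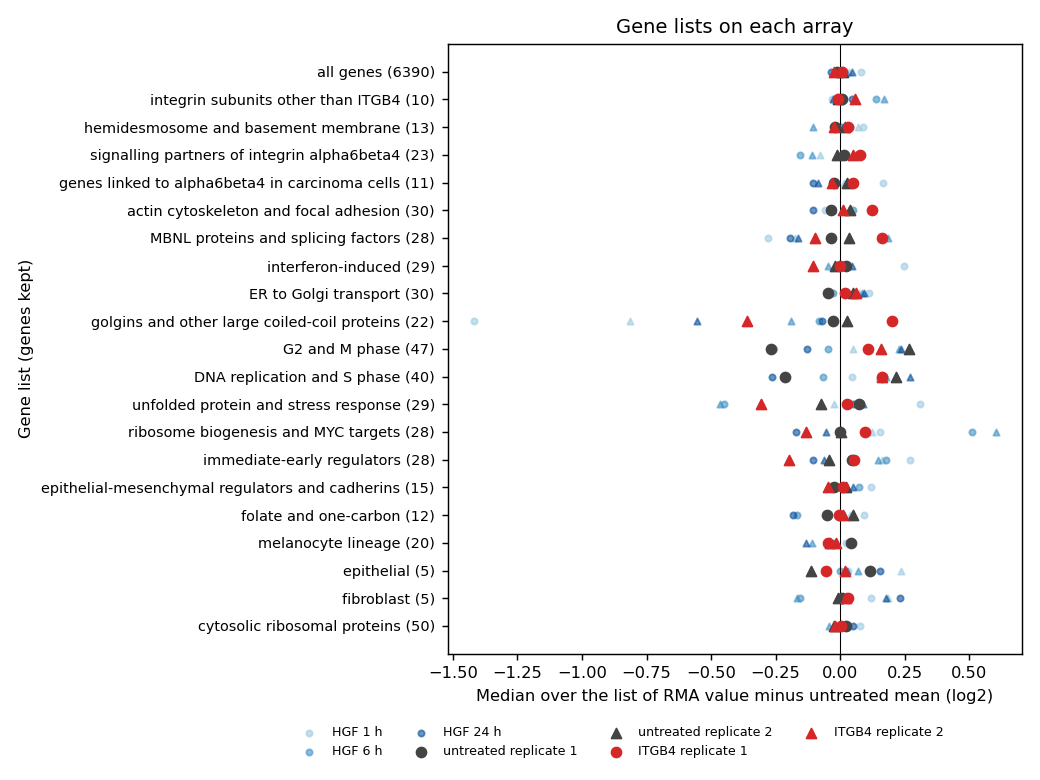
Median over the genes of each list of the RMA value minus the untreated mean (log2), on each array, with the number of genes kept in parentheses and small points for the HGF arrays. For golgins and stress genes the 2 ITGB4 arrays lie at 0.20 and -0.36 and at 0.025 and -0.31, and for the cell cycle lists the untreated arrays are further apart than the ITGB4 arrays.

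The 2 ITGB4 arrays differed from each other in more genes than those of any other group. The SD of the difference between replicates over the kept probe sets was 0.281 in ITGB4 cells, beside 0.195 in untreated cells and 0.277, 0.179 and 0.259 at 1, 6 and 24 h of HGF. By this measure the HGF 1 h arrays came close. A difference over 1 between replicates was seen in 67 probe sets for ITGB4 and in 1 for untreated cells, and in 21, 1 and 3 for the HGF groups. EGR1, an immediate-early transcription factor, was at 7.73 on replicate 1 and 5.77 on replicate 2, with the untreated arrays at 7.78 and 7.28. CCND1, the G1 cyclin, was at 8.20 and 6.62 on 208712_at, with the untreated arrays at 7.16 and 6.92. NUP98 (7.23 and 5.53 on 210793_s_at), SENP6 (8.99 and 7.41) and WASHC4 (8.65 and 7.10 on 212795_at) were also higher on replicate 1, and DBP (7.37 and 8.32), DIDO1 (6.87 and 7.63), EFNA1 (7.91 and 8.59), GOLGA2 (8.14 and 8.82 on 35436_at) and VWA5A (7.01 and 7.63) on replicate 2.

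The first principal component of the kept probe sets, 41.8% of the variance, put ITGB4 replicate 1 at 22.5 and replicate 2 at 0.518. The untreated arrays were at 4.95 and 5.63, the HGF 6 h arrays at 17.8 and 17.9, and the arrays of 1 h and 24 h between -26.2 and -11.0. Across probe sets, the difference of ITGB4 replicate 1 from replicate 2 had a Pearson's r of 0.651 with the difference of HGF 6 h from HGF 1 h, which shares no array with it. It was 0.258 with the difference of HGF 6 h from untreated cells and -0.695 with that of HGF 24 h from untreated cells. Probe sets higher on ITGB4 replicate 1 than on replicate 2 thus tended to be higher at 6 h than at 1 h of HGF and lower at 24 h of HGF than in untreated cells, and on the first component the replicates lay on either side of the untreated arrays.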

How the data were processed

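Total RNA from MDA-MB-435 cultures was hybridised to 10 Affymetrix arrays, 2 a group. The authors background-corrected, normalized and summarized the probe signals by RMA (package affy per the labels), and each deposited value is a log2 signal that was used unchanged. The authors' presence calls are not part of this table. As a stand-in, probe sets were kept whose second-highest value was at least 7.3. Array number and signal near background limit the precision.

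Symbols came from the platform annotation, with 19065 probe sets of 1 symbol, 1043 of several and 2107 of none, the last 2 kinds tested but not named. Models were fitted with limma 3.58.1 in R 4.3.3, with a mean per group over all arrays, 5 residual degrees of freedom and a prior of 5.94. P-values were adjusted over all kept probe sets (Benjamini-Hochberg), and the program was tested on simulated data. In lists a gene is counted by its probe set with the highest mean, or, against the 4 groups, by any of its probe sets. List medians carry no test. Genes named are drawn from ITGB4, ITGA6, called genes and the 10 highest and 10 lowest moderated t beyond both untreated arrays. They are also drawn from the 10 largest gaps each way from the other arrays and the 2 largest differences of each list. The last source is the 5 largest differences each way between the ITGB4 arrays. Some genes of these sources are not described. Genes outside these sources were named after their values were seen. The members and lists were chosen with earlier results of these data known. Promoters are from RefSeq, GRCh38.p14.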

Additional observations from a re-analysis of the deposited data

Results flagged for a closer look

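A probe set of F2R, the thrombin receptor PAR1, was left out by the filter on low values but stood apart in transduced cells. Probe set 203989_x_at was at 4.47 and 4.55 in untreated and at 5.89 and 5.69 in ITGB4 cells, with no other array above 4.65. The log2 difference was 1.28, a signal above the untreated arrays in data that the filtered comparisons do not use. All of its values lie at the low end of the array, where sizes are not exact. It was not part of the adjusted tests of the kept probe sets.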

How the results depend on the processing

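ITGB4 stayed called in every setting run, with a difference of 6.32 to 6.60 over the fits that left out each array, and the count called higher was 4 to 5 and lower 0 to 0 over them. Over the same fits the difference of MBNL1 was 1.17 to 1.36 on 201151_s_at, with the filter kept as set on all 10 arrays. Without either ITGB4 array, that probe set and those of ITGB4 would not have passed it. At a stricter filter of 8 the probe set of MBNL1 was not tested. The call of MBNL1 was lost with the spread of the 2 groups alone (limma adjusted p = 0.0935) and with ordinary t (0.0677). It was also lost on the mean of its probe sets (limma, 0.493). The call of IQGAP1 was lost in the same 3 settings (0.370, 0.189 and 0.920). Probe sets called higher were 3 with the spread of the 2 groups alone, 3 with ordinary t, 1 of ITGB4 on the mean of the probe sets of each gene, 326 (139 lower) against the mean of the 4 other groups, 27 (10 lower) with adjustment over the 4 comparisons with untreated cells and 379 (239 lower) at an unadjusted p under 0.05, where ITGA6 (0.54) also passed. Without each array in turn ITGA6 differed by 0.17 to 0.90. The cause of these changes was not tested.

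The replicate numbers were not taken as a pairing, which no label gives. Deviations of same-numbered arrays from their group means had an r of -0.14 to 0.46 over 10 pairs of groups, over 0.1 in 8 of them (0.13 for ITGB4 and untreated cells), and the replicate block gave 1 probe set called lower. Counts of arrays that do not overlap moved with the filter and with the number of arrays. Without a filter, 2872 probe sets lay above both untreated arrays, 4039 below both and 1193 below all 8 others, and the r between the differences of each replicate number was 0.063. On gene means, the counts were 973 and 1138 beyond the untreated arrays and 325 and 411 beyond all 8. Leaving out each of the 4 compared arrays gave 2603 to 4045 above and 3110 to 4176 below the untreated arrays, and leaving out each of the 10 gave 621 to 1844 above and 639 to 1648 below all others.

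In settings added after the data were seen, the counts against the mean of the 4 other groups were 13 to 542 higher and 8 to 198 lower without each array, and 224 lower with median centring and 474 higher and 219 lower with the replicate block. Signal near background limits the sizes for ITGB4, MBNL1, SCYL2 and LMAN1.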
